A study of Mus musculus with 6 samples.

Results

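The aldo-keto reductase genes described here are Akr1cl and 9 other members of the mouse Akr1 family: Akr1c18, Akr1c12, Akr1c13, Akr1c14, Akr1b7, Akr1b8, Akr1b3, Akr1a1 and Akr1e1. They were selected on a measured value, the difference in Akr1cl between uteri with and without an active SF1 transgene, which was the highest rise on the array, and on the family name. Every probe set annotated to exactly 1 of these symbols was kept, which gave 13 of 45037 probe sets and 8 of the 10 genes. Akr1b3 and Akr1b7 were not analysed here, and 1 further probe set, annotated to several symbols including a member's, was left out by the same rule. All values are from 6 arrays of total RNA from uterine horns of C57BL6J mice, with the cervix removed, each array holding RNA of 2 uteri. The 3 control arrays were from mice with the transgene allele SF1LsL/+ and no Cre. The 3 SF1 arrays were from mice with the same allele and Pgrcre/+, a Cre allele at the locus of the progesterone receptor that turns the transgene on in Pgr-expressing cells. Every mouse thus carried SF1LsL/+, and Cre and the altered Pgr allele were present in the SF1 group only, so Cre, Pgr dose and SF1 cannot be told apart. Tissue was collected 2 weeks after a surgery, and the sources used here give neither its kind nor the age of the mice.

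Aldo-keto reductases are barrel-shaped enzymes that use NADPH to reduce aldehyde and ketone groups to alcohols. The Akr1c branch acts mainly on steroids and prostaglandins, the Akr1b branch on sugars, lipid aldehydes and prostaglandins, and the Akr1a and Akr1e branches on other small carbonyl compounds. In the reproductive tract the family is known for inactivating progesterone, for making prostaglandin F and for removing reactive aldehydes. SF1, the nuclear receptor encoded by Nr5a1, drives steroid-producing genes in the adrenal cortex and gonads and is not a usual factor of the uterus.

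Array medians lay between 149.9 and 162.2 intensity units. Differences below are of log2(intensity + 16) as fitted by limma, SF1 minus control, with a standard error (SE) or a 95% interval, and a probe set was called at an adjusted p under 0.05. The intervals are not adjusted for the number of probe sets tested, so an interval that leaves out 0 is not a call. Over all probe sets the median difference was -0.07, and 42.1% of calls were higher in SF1, against 52.1% after quantile normalization and 56.5% after median centring. Of the 2 Nr5a1 probe sets neither was called (0.00 and 0.08), and their position relative to the transgene is not known, so they do not check it. All 3 Pgr probe sets fell, the brightest by 1.34 on the log2 scale (limma adjusted p = 3.23e-05). Of 9 uterus markers, 6 fell (Pgr, Hoxa10, Hoxa11, Hoxd10, Wnt7a and Hand2), Foxa2 rose, and Esr1 and Emx2 were not called, with a median of -0.77. Wnt7a fell on its brightest probe set only, as its others, at -0.30 and -0.02, were not called lower. Of the other Hand2 probe sets, at -0.44 and -0.33, 1 was called lower. Hoxa11, a uterine patterning gene, read 1205 and 564 intensity units in control and SF1, and Esr1, the estrogen receptor gene, 8967 and 7837. Leaving out any 1 array reduced the number of called probe sets from 6291 to between 3771 and 4761. Without SF1 replicate 1 or control replicate 1 it was 3771 or 4150.

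Akr1cl lies on chromosome 1 (GRCm38.p6, positions 65013078 to 65032759), away from the other members, and read far higher in SF1 uterus than in control uterus on both of its probe sets. Its name marks it as similar to the Akr1c branch. The brighter of its 2 probe sets read 41.1, 48.1 and 43.6 intensity units in control replicates 1 to 3. In SF1 replicates 1 to 3 it read 9289.9, 8425 and 9696. The groups were therefore separated by a wide gap, with little spread inside either. The group means were 44.3 ± 3.51 and 9137 ± 649.5 (SD, n = 3), a ratio of 206, and SF1 exceeded control by 7.25 on the log2 scale (95% interval 7.05 to 7.45). The second probe set of Akr1cl read 16.9, 18.4 and 24.4 in control and 1446, 946 and 1393 in SF1. SF1 replicate 2 was the lowest SF1 array on both probe sets. The means were 19.9 ± 3.96 and 1262 ± 274, a ratio of 63.4, which on the log2 scale is 5.13 (95% interval 4.77 to 5.50). Both are given as a description and not as a test, because this difference chose the gene. Dim control values make the size depend on the pseudocount: with 64 the 2 differences were 6.41 and 3.96, and with 1 they were 7.66 and 5.91. Leaving out any 1 array kept them between 7.20 and 7.30 and between 5.03 and 5.33.

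**Figure D1:**
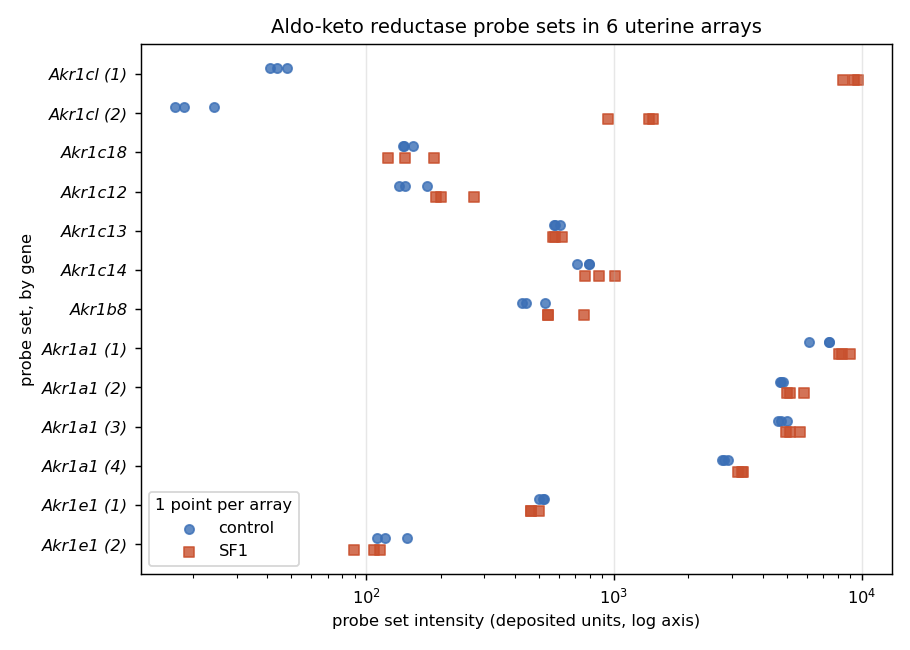
Deposited intensity on a log axis for each of the 13 probe sets of the 8 measured aldo-keto reductase genes; circles are the 3 control arrays and squares the 3 SF1 arrays, and numbers in brackets order a gene's probe sets from bright to dim. The 2 Akr1cl probe sets move from 44.3 to 9137 and from 19.9 to 1262, while the probe sets of the other genes stay within a ratio of means of 1.45 or less.

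The genes outside the family whose 6 log2 values, each taken relative to the gene's own control mean, lay nearest to those of Akr1cl were Ccdc153, a gene of ciliated cells, Nr0b1, a target of SF1 in adrenal and gonad that encodes a repressor, the chemokine gene Cxcl5, the dynein light chain gene Dynlrb2 and the gut hormone gene Pyy. Root mean square distances over the 6 arrays were 1.38 for Ccdc153, 1.57 for Nr0b1, 1.79 for Cxcl5, 1.86 for Dynlrb2 and 1.88 for Pyy, which are large because no other gene rose as far. Ccdc153 read 19.4, 25.8 and 21.5 in control and 1388, 1149 and 2168 in SF1, lowest in SF1 replicate 2 and highest in SF1 replicate 3 like the brighter Akr1cl probe set. Nr0b1 read 21.1, 26.2 and 23.7 in control and 1325, 1370.3 and 1172 in SF1, and was lowest in SF1 replicate 3. The likeness is a description over arrays that share the same group difference.

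Markers of other cell types moved with the same contrast, and their part in the Akr1cl difference was not tested. In whole tissue, a change in how many cells of a type were present and a change in RNA per cell cannot be told apart. Of 8 measured markers of ciliated cells and oviduct, 6 rose and 1 fell, and their summed intensity was 1412 to 1555 in control arrays and 5977 to 9405 in SF1 arrays. Those that rose were the ciliated cell genes Foxj1, Dynlrb2, Rsph4a, Tekt1, Ccdc153 and Tmem212. The 1 that fell was the oviduct gene Ovgp1, which read 279 in control and 161 in SF1 (-0.73), and Dnah5 was not called. Of 8 macrophage markers, 6 rose and none fell, with sums of 5667 to 9226 and 11438 to 15587. The adrenal cortex is a tissue rich in SF1 and in aldo-keto reductases. Of its 7 measured markers Nr0b1 and Star rose, while the defining enzymes Cyp11b1 (59.3 and 81.2 intensity units in control and SF1) and Cyp21a1 (166 and 163) and the receptor Mc2r (83.6 and 82.0) were not called. Among 9 ovary markers Inha rose and Foxl2 fell, while the oocyte genes Gdf9 (181 and 161), Bmp15 and Oosp1 were not called. The fall of Foxl2 was on its brighter probe set only, and the other differed by -0.11. Endothelial markers fell in 6 of 6 cases, and endometrial stroma markers in 6 of 9 with none higher. Pecam1 was near the threshold (limma adjusted p = 0.0473), and the second probe set of Cdh5 was not called (-0.21). Hand2 and Hoxa11 count in both the stroma and the uterus markers. The marker counts were not repeated under alternative settings. Of 8 uterine epithelium markers 2 rose and 3 fell, of 8 smooth muscle markers none was called, and Ttr of 6 liver and Retn of 4 fat markers fell. The groups overlapped for Retn (limma adjusted p = 0.0492). The median of the 4 fat markers was -0.80. Among them Adipoq, not called, read 2385, 3592 and 2797 in control and 2748, 1505 and 405 in SF1. Of 6 kidney tubule markers Umod, the uromodulin gene, rose from 37.3 ± 1.46 to 1113 ± 349 (SD, n = 3), while Slc34a1, Cubn and Slc5a2 were not called. The lowest value of any tested probe set was 1.08 on SF1 replicate 2 and 1 on each other array, so no marker could be listed at 0.

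The promoter of Akr1cl is shown because the largest difference in the data belongs to this gene. The sequence is from RefSeq (GRCm38.p6), at chr1:65032710-65033009 on the minus strand, and runs from 250 bases before the transcription start to 50 after it. Capitals here and in the sequences below mark matches, on either strand, to any of 4 motifs: the SF1 half-site AAGGTCA, the NRF2 element TGANNNNGC, the half-site TGTTCT of the progesterone and glucocorticoid receptors, and the TATA box TATAAA.
Akr1cl: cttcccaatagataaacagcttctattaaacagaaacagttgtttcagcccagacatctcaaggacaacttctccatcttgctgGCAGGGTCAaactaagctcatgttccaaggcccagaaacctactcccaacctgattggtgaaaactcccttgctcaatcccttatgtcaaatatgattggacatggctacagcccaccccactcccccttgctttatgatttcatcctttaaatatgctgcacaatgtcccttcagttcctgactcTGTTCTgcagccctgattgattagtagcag
An NRF2 element began 166 bases before the start, on the opposite strand, and a TGTTCT half-site began at base 21 after it. The letters AAGGTCA did not occur in this window, which says nothing about binding of SF1 elsewhere. Of 32817 RefSeq promoter windows of the same length, 4.72% held AAGGTCA, 41.3% TGANNNNGC, 19% TGTTCT and 13.6% TATAAA. Of the 9 members with a promoter in the table, 1 held AAGGTCA, 5 TGANNNNGC, 2 TGTTCT and 1 TATAAA. The member with AAGGTCA was Akr1b7, known as a gene of the adrenal cortex and vas deferens, whose match is on the opposite strand and begins 248 bases before the start, as the first 30 bases of its window show (chr6:34412112-34412141, plus strand).
Akr1b7: gaTGACCTTtcaaccatgtcacttaggttc
Akr1b7 itself was not analysed here, so no level stands beside this match.

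The Akr1c members lie together on chromosome 13 and did not share the rise of Akr1cl. Akr1c18 (positions 4132615 to 4150646) encodes the enzyme that inactivates progesterone in the corpus luteum before birth. It read 143, 154 and 141 intensity units in control and 123, 188 and 144 in SF1. The SF1 arrays lay on both sides of the control arrays. The means were 146 ± 7.08 and 151 ± 33.1 (SD, n = 3), which on the log2 scale differ by 0.03 (95% interval -0.27 to 0.33), and the sign turned without SF1 replicate 2 (-0.12). Akr1c14 (positions 4048991 to 4090560) encodes a hydroxysteroid dehydrogenase that reduces dihydrotestosterone and dihydroprogesterone. Its values were 793, 795 and 712 in control and 874, 761 and 1015 in SF1, so that 1 SF1 array fell inside the control range. The means were 767 ± 47.6 and 883 ± 127 (SD, n = 3), and the log2 difference was 0.19 (interval -0.06 to 0.45). It lay between 0.09 and 0.29 when 1 array was left out.

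Akr1c12 (chromosome 13, positions 4268172 to 4279399) and Akr1c13 (positions 4191168 to 4205604) are near copies of one another that lie on opposite strands. Their promoter windows matched at 284 of 304 aligned columns (93.4% identity), the closest pair among the members, while the next pair, Akr1c18 and Akr1c14, reached 55.6%. They are printed to show how alike these windows are. The Akr1c12 window is at chr13:4279350-4279649, minus strand, and that of Akr1c13 at chr13:4190937-4191236, plus strand, both RefSeq GRCm38.p6.
Akr1c12: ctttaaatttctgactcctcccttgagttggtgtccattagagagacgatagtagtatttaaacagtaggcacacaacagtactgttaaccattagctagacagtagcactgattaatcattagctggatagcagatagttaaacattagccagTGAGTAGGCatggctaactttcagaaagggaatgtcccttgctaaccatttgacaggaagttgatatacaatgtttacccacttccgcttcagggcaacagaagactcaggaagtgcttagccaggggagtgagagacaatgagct
Akr1c13: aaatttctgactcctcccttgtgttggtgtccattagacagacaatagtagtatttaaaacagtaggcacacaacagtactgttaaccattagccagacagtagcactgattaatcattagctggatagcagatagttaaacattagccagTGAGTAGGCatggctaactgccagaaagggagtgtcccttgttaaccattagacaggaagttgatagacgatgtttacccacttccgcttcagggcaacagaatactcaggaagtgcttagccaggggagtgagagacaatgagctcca
Each held 1 NRF2 element on the strand of the gene, 96 and 99 bases before the start, and none of the other 3 motifs. Akr1c12 read 144, 177 and 136 in control and 272, 201 and 191 in SF1. All SF1 arrays were above all control arrays, with SF1 replicate 1 highest. Its mean went from 152 ± 21.5 to 221 ± 44.3 (SD, n = 3), a ratio of 1.45. The log2 difference of 0.49 (interval 0.16 to 0.81) was not called (limma adjusted p = 0.0549). Without SF1 replicate 1 that difference was 0.34, and without control replicate 2 it was 0.59. Akr1c13 read 571, 604 and 581 in control and 571, 617 and 578 in SF1. Its groups overlapped almost fully, at 585 ± 17 and 589 ± 25, with a log2 difference of 0.01 (interval -0.16 to 0.18). Probes of such close copies can share signal, and how far these 2 probe sets do was not tested.

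In the Akr1b branch, which lies on chromosome 6, Akr1b8 was the one member with a probe set annotated to exactly 1 symbol. Akr1b8 (positions 34354146 to 34368461) was first described as a protein induced by fibroblast growth factor and reduces lipid aldehydes. It read 528, 427 and 444 in control and 542, 760.2 and 542 in SF1. The lowest SF1 array was just above the highest control array, and SF1 replicate 2 stood apart from the other 2. The means were 466 ± 54 and 615 ± 126 (SD, n = 3), a log2 difference of 0.38 (interval 0.05 to 0.70), which was 0.22 without SF1 replicate 2. Akr1b8 was not called (limma adjusted p = 0.12). Its neighbour Akr1b10, which was not among the selected genes, reduces retinal and lipid aldehydes and rose in all 3 of its probe sets. The brightest read 426, 438 and 416 in control and 811, 812 and 786 in SF1, which on the log2 scale is a rise of 0.89 ± 0.07 (SE, with limma adjusted p = 0.000109). The others rose by 0.57 (limma adjusted p = 0.00247) and 0.39 (limma adjusted p = 0.0303), and Akr1b10 was higher in 3 of 3 SF1 arrays on each. That Akr1b10 and Akr1b8 differ in their change was not tested.

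Akr1a1 (chromosome 4, positions 116636510 to 116651674) encodes a general aldehyde reductase that in mice also serves vitamin C synthesis, and it differed little between the groups. The brightest of its 4 probe sets read 7398, 6124 and 7379.5 in control and 8951, 8349 and 8095 in SF1. The second read 4673, 4727 and 4821 in control and 5875, 5128 and 5019 in SF1, again with no overlap. The third read 4746, 4614 and 5021 in control and 5626, 5132 and 4949.8 in SF1, where SF1 replicate 3 fell inside the control range. The dimmest read 2729, 2774 and 2889.9 in control and 3294, 3315 and 3178 in SF1. In 3 of the 4 probe sets all SF1 arrays were above all control arrays, and the log2 differences were 0.28, 0.17, 0.13 and 0.22 from the brightest to the dimmest. Their 95% intervals were 0.06 to 0.51, -0.03 to 0.36, -0.06 to 0.31 and 0.05 to 0.39. None of the 4 probe sets was called (limma adjusted p = 0.0903, 0.225, 0.343 and 0.0814). SF1 replicate 3 was the lowest SF1 array in all 4 probe sets, and SF1 replicate 1 the highest in 3. Akr1e1 (chromosome 13, positions 4591123 to 4609164) encodes an anhydrofructose reductase and read slightly lower in SF1. Its brighter probe set read 525, 499 and 517 in control and 465, 499.9 and 463 in SF1, where SF1 replicate 2 fell inside the control range. The means were 514 ± 13.3 and 476 ± 20.7 (SD, n = 3), and the log2 difference was -0.11 (interval -0.28 to 0.06). The second probe set of Akr1e1 read 111, 146 and 119.7 in control and 114, 89.5 and 108 in SF1. These groups overlapped as well, and the log2 difference was -0.24 (interval -0.51 to 0.03). Both kept a negative sign under every alternative run.

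**Figure D2:**
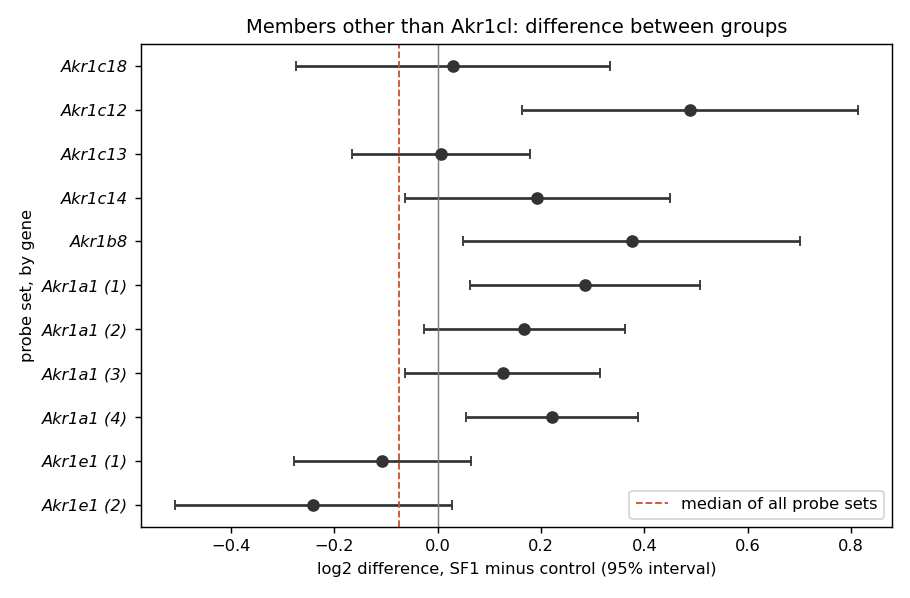
Log2 difference between SF1 and control (points) with its 95% interval (bars) for the 11 probe sets of members other than Akr1cl; the dashed line is the median of all probe sets at -0.07. Akr1c12 at 0.49 and Akr1b8 at 0.38 lie farthest to the right, and the dim Akr1e1 probe set at -0.24 farthest to the left.

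Of the 13 member probe sets, 2 were called higher, both of Akr1cl, where 5.88% of all probe sets were called higher. None was called lower, where 8.08% of all probe sets were. All SF1 arrays were above all control arrays for 7 of the 13, and the groups did not overlap for 36.7% of all probe sets in either direction. The selection used this contrast, so nothing is read from these counts. The median log2 difference of the 13 was 0.19. By the distance used for Akr1cl, the member nearest to Akr1c13 was Akr1e1 (0.09) and the nearest to Akr1c18 was Akr1c13 (0.13), both flat genes. Akr1c12, Akr1c14 and Akr1b8 were each nearest to Akr1a1 (0.26, 0.20 and 0.20). The member nearest to Akr1cl was Akr1c12, at 4.78. No single SF1 array was low throughout: on the brightest probe set of each gene, SF1 replicate 1 was the lowest SF1 array for Akr1c18, Akr1c13 and Akr1b8, SF1 replicate 2 for Akr1cl and Akr1c14, and SF1 replicate 3 for Akr1c12, Akr1a1 and Akr1e1. The highest SF1 array was replicate 2 for Akr1c18, Akr1c13, Akr1b8 and Akr1e1, replicate 1 for Akr1c12 and Akr1a1, and replicate 3 for Akr1cl and Akr1c14.

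The genes that flank the members were compared to see whether neighbours shared a difference. At Akr1cl, 8 of the 10 nearest protein-coding genes were measured, none of them higher in SF1. The genes directly beside it on the 2 sides were Plekhm3 (-0.03), a gene of endosomal traffic, and Cryge, a lens crystallin gene that was not analysed here. The next measured crystallin gene, Crygd, differed by -0.15 and Fzd5, a Wnt receptor gene, by 0.25, and neither was called. Creb1, the gene of the cAMP response factor, was called lower (-0.33, limma adjusted p = 0.0267). It lost that call without control replicate 1, control replicate 2 or any SF1 replicate, which left 1 fallen gene at the 3 loci in place of 2. Around the Akr1b genes, 10 of 11 neighbours were measured. Akr1b10 and Lrguk, a gene of sperm tail formation, rose, and Tmem140 fell. Lrguk read between 24.8 and 28.5 in control and rose by 1.91 ± 0.13 (SE; limma adjusted p = 4.98e-05), and Tmem140 fell by 0.66 on the log2 scale (limma adjusted p = 0.00765). In and around the Akr1c cluster 12 of 14 neighbours were measured and none was called. Among these, the unselected Akr1c genes Akr1c19 (-0.15), Akr1c6 (-0.12), Akr1c20 (-0.21) and Akr1c21 (0.09) lay within the cluster.

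**Figure D3:**
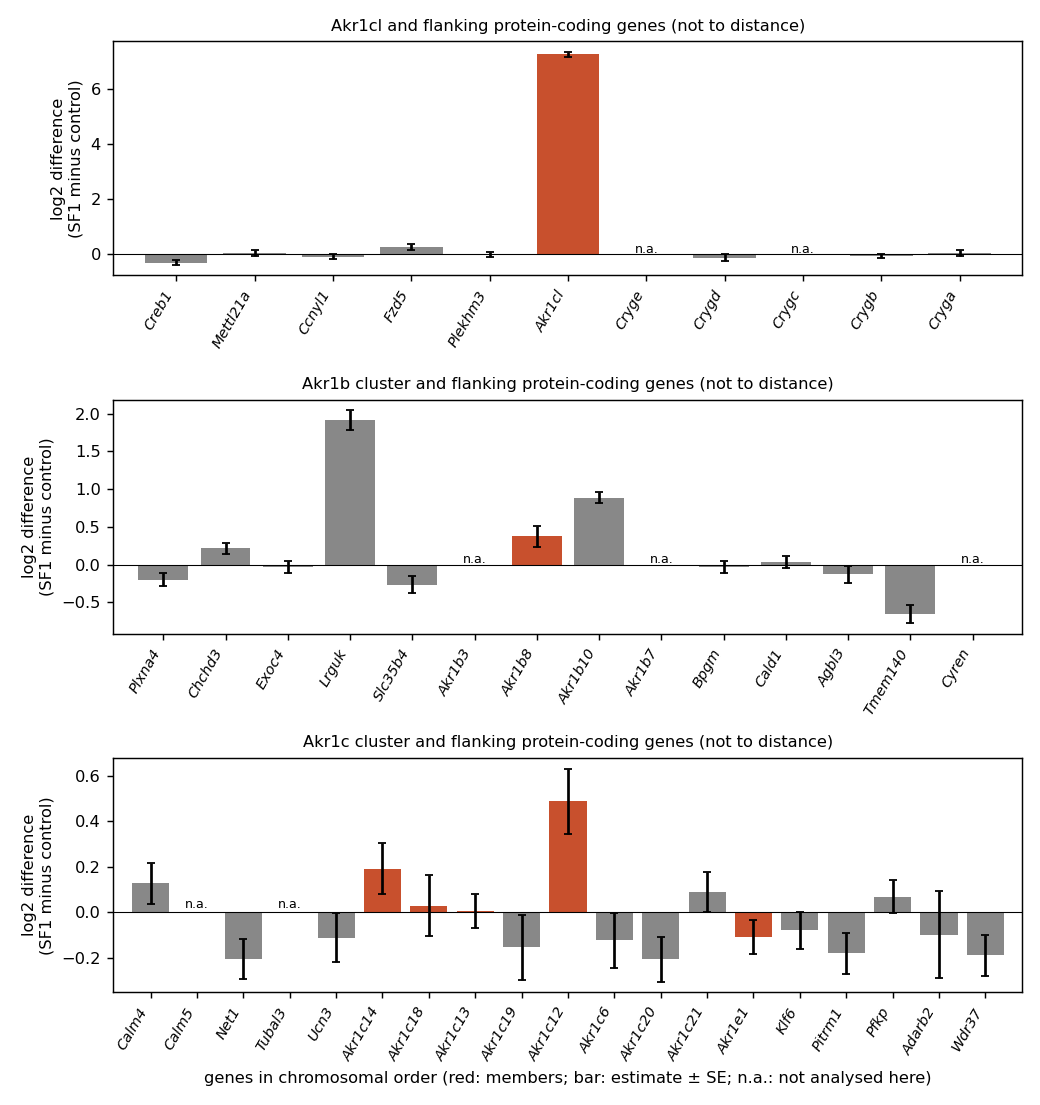
Log2 difference (SF1 minus control, bars, with SE) of the genes in chromosomal order around Akr1cl, the Akr1b genes and the Akr1c cluster, 1 panel each with its own scale; members are red, and n.a. marks genes not analysed here. Akr1cl at 7.25 stands alone among its neighbours, Lrguk at 1.91 and Akr1b10 at 0.89 are the tall bars of the second panel, and no bar of the third exceeds Akr1c12 at 0.49.

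Genes of related pathways outside the selected ones were tested in the same fit, with 1 probe set per gene. Of all 18193 genes, 8.45% were called higher and 8.11% lower, and their median log2 difference was -0.05. Of 10 other aldo-keto reductase genes, 1 rose (Akr1b10), 1 fell and 8 were not called, with a median of -0.07. The one that fell was Kcnab1, a potassium channel subunit with an aldo-keto reductase fold, from 281 ± 6.08 to 145 ± 2.05 intensity units (SD, n = 3; -0.89, limma adjusted p = 0.000104). Its second, dimmer probe set was not called (-0.26).

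Steroid-converting enzymes outside the family were counted together with the cholesterol carrier gene Star. Of 28 measured genes 3 were higher, 2 lower and 23 not called (median 0.03), where 8.45% of all genes were higher and 8.11% lower. Star, which carries cholesterol into mitochondria, rose by 2.70 ± 0.11 (SE; limma adjusted p = 4.84e-06), and so did its other 2 probe sets. Cyp11a1, the enzyme of cholesterol side-chain cleavage, read 365.8, 421 and 125 in SF1 against 66.3 to 84.1 in control. It was called (1.66, limma adjusted p = 0.0182) on that probe set only, was not called with the mean of its 3 probe sets (0.50), and lost its call with eBayes with trend and robust and when control replicate 1 or either of SF1 replicates 1 and 2 was left out. Hsd11b1, which regenerates active glucocorticoid, rose by 0.73 (limma adjusted p = 0.00298), while Hsd17b11 fell by 0.47 and Sult2b1, a sterol sulfotransferase gene, by 0.62 on the log2 scale (limma adjusted p = 0.00822 and 0.00802). Sult2b1 was dim, with means of 51.4 intensity units in control and 27.6 in SF1. Its difference was -0.33 with a pseudocount of 64 and -0.86 with a pseudocount of 1.

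Prostaglandin genes are relevant to a family that makes prostaglandin F, and of 24 measured genes 4 rose, 6 fell and 14 were not called (median -0.00). Ptgis and Ptgir, the synthase and receptor of prostacyclin, rose by 0.77 and 0.70, and Ptgr1, a reductase that degrades prostaglandins, by 0.63 (limma adjusted p = 0.0025, 0.00563 and 0.00573). Ptger4, a receptor for prostaglandin E, fell from 2674 ± 124 to 1261 ± 21.3 intensity units (SD, n = 3; -1.07, limma adjusted p = 5.2e-05). Pla2g4a, the phospholipase that frees arachidonic acid, fell by 0.98 and the exporter gene Abcc4 by 0.95 on the log2 scale (limma adjusted p = 0.000195 and 0.000539). Ptgfr, the receptor for prostaglandin F, was named after its values were seen: it fell by 0.91 on the log2 scale (limma adjusted p = 0.000828).

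Of 30 other carbonyl and aldehyde enzymes, 5 rose, 7 fell and 18 were not called (median -0.02). Aldh1b1, a mitochondrial aldehyde dehydrogenase gene, rose from 116 ± 8.6 to 429.9 ± 51.6 intensity units (SD, n = 3; 1.75, limma adjusted p = 2.32e-05). Aldh3b1 (0.86, limma adjusted p = 0.00069) and Cbr2, a carbonyl reductase gene (0.89, limma adjusted p = 0.0232), also rose, the latter not without control replicate 1 or 3 or with eBayes with trend and robust. Aldh1a3 and Aldh1a2, which each make retinoic acid, fell by 1.53 and 0.90 on the log2 scale (limma adjusted p = 1.54e-05 and 0.00232), as did Aldh1a7 by 0.88 (limma adjusted p = 0.00117). Without control replicate 1 or 3 the number that rose was 3.

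Genes known as targets of NRF2, a factor that induces several aldo-keto reductases, were higher in 9 of 24 cases, lower in 2 and not called in 13 (median 0.18). Those not called included Nqo1 (0.09), Hmox1 (0.15), Gclm (0.14), Txnrd1 (0.18) and Srxn1 (-0.23), named after the values were seen. The glutathione transferase genes Gsta2, from 27 ± 3.86 to 309 ± 37.6 intensity units (SD, n = 3; 2.91, limma adjusted p = 4e-06), and Gsta3 (2.36, limma adjusted p = 5.49e-05) rose most, followed by the exporter gene Abcc3 (0.84, limma adjusted p = 0.00121). Gsta2 has close copies whose transcripts its probes may share. Slc7a11, a cystine transporter gene, fell by 1.12 and Gclc, which makes the glutathione precursor, by 0.41 on the log2 scale (limma adjusted p = 0.000168 and 0.0119), each on 1 of 2 probe sets.

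NADPH is the cofactor of the family, and of 16 measured genes listed for its supply 5 rose, none fell and 11 were not called (median 0.15). The list includes pentose phosphate pathway genes that do not make NADPH themselves, such as Taldo1. Named after the values were seen, Taldo1 rose by 0.36 and H6pd by 0.38 (limma adjusted p = 0.03 and 0.0499), and G6pdx was not analysed here. Idh1, a cytosolic NADPH-producing dehydrogenase gene, read 962, 1032 and 1038 in control and 2196, 2102 and 2049 in SF1. It rose by 1.05 ± 0.08 (SE; limma adjusted p = 6.21e-05) and its second probe set by 1.18. Me1, malic enzyme, rose by 0.97 (limma adjusted p = 0.0111) on 1 of 2 probe sets. Mthfd1, of folate metabolism, rose by 0.40 (limma adjusted p = 0.0155), and this call needed control replicate 3 and both of SF1 replicates 1 and 2. The number that rose was 3 without control replicate 1 or 3 and 2 without SF1 replicate 1 or 2.

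Genes listed as SF1 targets of adrenal and gonad outside the family were higher in 4 of 12 cases, lower in 1 and not called in 7 (median 0.06). Star and Cyp11a1 are not among these 12, as they were counted above with the steroid-converting enzymes. Nr0b1 rose by 5.04 ± 0.09 (SE; limma adjusted p = 7.52e-08), Vnn1, a pantetheinase gene, by 2.63 and Inha, the inhibin subunit gene, by 0.78 (limma adjusted p = 7.7e-06 and 0.000505). Nr5a2, the close relative of Nr5a1, fell by 0.95 on the log2 scale on its brightest probe set (limma adjusted p = 0.000377). Its other probe sets differed by -0.51, which was called, and by -0.33 and 0.18, which were not. Without SF1 replicate 2 a second gene of the list was called lower.

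**Figure D4:**
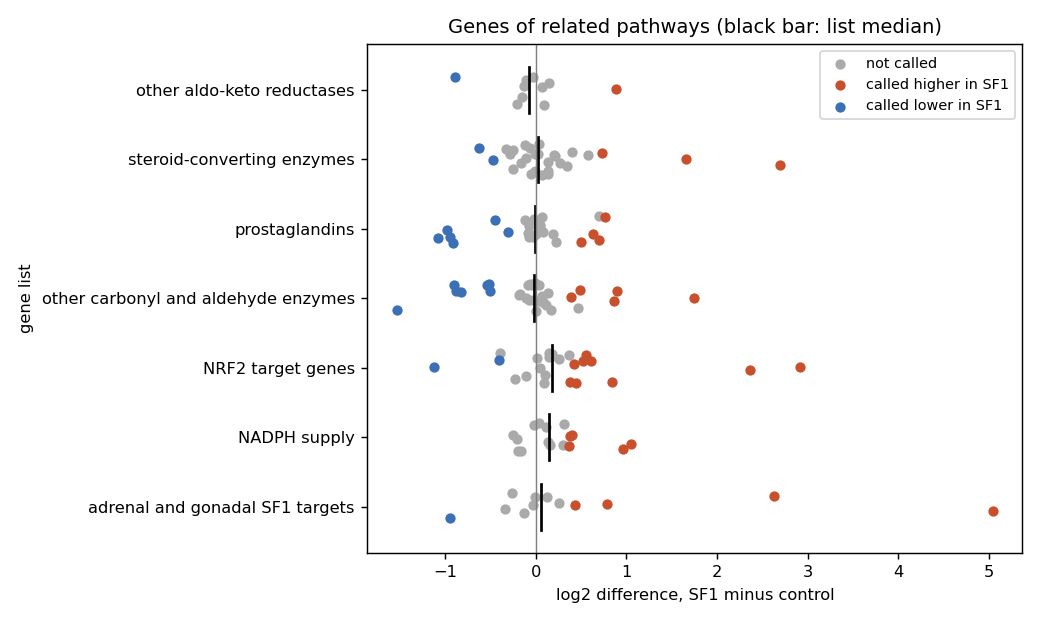
Log2 difference (SF1 minus control) of each measured gene in the 7 lists of related pathways, 1 point per gene, coloured where called at an adjusted p under 0.05; black bars are list medians. Medians lie between -0.07 and 0.18, and the points farthest to the right are Nr0b1 at 5.04, Gsta2 at 2.91, Star at 2.70 and Vnn1 at 2.63.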

How the data were processed

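Each deposited value is the linear intensity of a probe set on a 1-colour Affymetrix array; the array type is per the labels and the scale was read from the values. The sources used here do not give how the authors corrected background, normalized and summarized them, steps that can alter dim probe sets most. Groups came from the sample titles, with 3 arrays each. The fit held 45037 probe sets, after removal of 64 array controls. Symbols were read from GEO's platform annotation: 34945 probe sets had 1 symbol, 932 several and 9160 none, and only the first kind was named. For a gene outside the family with several probe sets, the brightest by mean intensity was used.

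Intensities were transformed as log2(value + 16), which understates changes of dim genes, and fitted with limma 3.58.1 (lmFit, eBayes) in R 4.3.3, with Benjamini-Hochberg adjustment over all tested probe sets. Tables were made in Python 3.11.15 with pandas 2.3.3. On simulated arrays of 45037 probe sets the fit called 50% of those changed 1.5-fold, 88% at 2-fold and 98% at 4-fold, with 3 unchanged probe sets called. Far fewer probe sets were changed there than were called in the data, which makes the adjusted threshold stricter. These shares therefore do not give the share of real changes that the fit found. The number of arrays limits precision, and p-values measure the spread between these pools only.

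The members and lists were chosen with earlier results of these data known. Of 261 list entries (7 pathway and 12 marker lists) 232 were measured. Named genes were the members, up to 3 called genes per direction of each pathway list, and the 5 genes nearest to Akr1cl. Called genes among the 5 protein-coding genes on each side of a member locus, or within it, were also named. Outside this rule, Plekhm3, Cryge, Crygd, Fzd5 and the unselected Akr1c genes were named as neighbours that were not called or not analysed here. Others are named as such or as markers. Alternatives were quantile normalization, median centring, only probe sets above the median brightness, pseudocounts of 1 and 64, eBayes with trend and robust, a replicate block, averaging over the probe sets of a list gene, each array left out and, for the members only, a stricter adjusted p threshold of 0.01. Promoters were read from a RefSeq table. Protein sequences were not used here.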

Additional observations from a re-analysis of the deposited data

How the results depend on the processing

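The number of member probe sets called higher was 2, with both of Akr1cl, whose call the selection fixed. It became 3 with quantile normalization, 3 with median centring, 4 with only probe sets above the median brightness, 4 with a pseudocount of 64, 5 with eBayes with trend and robust and 1 with the brightest probe set of each member, and it was 2 at an adjusted p under 0.01. The additional calls were of Akr1c12 and Akr1a1, whose log2 differences kept their sign, while those of Akr1c13 lay between -0.03 and 0.06 over the alternatives. Leaving out 1 array gave between 2 and 3. Calls over all probe sets fell from 6291 to 4095 with the replicate block, and lay between 3771 and 4761 with 1 array left out. Replicate numbers did not pair the arrays: deviations of same-numbered arrays correlated at -0.06, -0.10 and -0.18. With the replicate block 3 NADPH genes rose in place of 5, and 1 gene next to the members fell in place of 2, as with median centring (1). With only those brighter probe sets, 0 genes of the SF1 target list fell, in place of 1, and the Nr5a2 probe set is below that brightness. With 1 array left out, the counts ranged from 2 to 4 for risen genes of the NADPH list and 3 to 5 for risen carbonyl enzymes. They ranged from 1 to 2 for fallen genes of the SF1 target list and 1 to 2 for fallen neighbours. The other counts of the pathway lists stayed within 1.5 times their value under the alternatives run for them, which did not include the stricter threshold, and no called gene turned its sign. Dim control values limit the size of the Akr1cl difference, and the depth of an array cannot be stated as a count.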
